A study of Homo sapiens with 54 samples.

Results

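The genes described here are 45 genes of the endoplasmic reticulum (ER) secretory pathway and the unfolded protein response. Members were the listed gene symbols whose Ensembl identifiers were found among the 31835 gene identifiers of the count table, and all 45 were found. They comprise 13 chaperones and folding enzymes, 9 genes of ER-associated degradation (ERAD), 16 genes of protein translocation, signal peptide cleavage and N-glycosylation, 2 stress sensors (ATF6 and ERN1) and 5 genes of the ATF4 branch (ATF4, DDIT3, TRIB3, CHAC1 and PPP1R15A). The first 3 groups, 38 genes, are called XBP1-type ER genes below because XBP1 is a known activator of much of this machinery, and the question asked was whether they differed from the ATF4 branch over time and between STAT6 genotypes.

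The cells were OCI-Ly1, a B-cell lymphoma line carrying the translocation t(14;18). They stably expressed a CMV-driven, tagged STAT6 cDNA that was either wild type (STAT6 WT) or a DNA-binding-domain mutant (STAT6 MUT, namely D419G, D419N or N421K). All groups shared the same treatment: interleukin 4 (IL-4) at 10 ng/ml for 20 min, a wash, and culture without IL-4 until RNA was taken at 2, 4 or 8 h. Each time was sampled with 9 STAT6 WT libraries and 9 STAT6 MUT libraries (3 per mutant line), 54 in all. Replicate numbers 1 to 3 occur in all 4 lines, and 4 to 9 occur in STAT6 WT only. Per the study's methods the parental line also carries its own STAT6 variant in the same domain. How many independent transductions were made is not stated in the labels or methods, and the genotype cannot be told apart from the transduced cell population, and p-values measure the spread between these libraries. No library from before the IL-4 pulse was analysed here, so every change over time is between 2, 4 and 8 h and not against resting cells.

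Proteins bound for the cell surface or for secretion enter the ER through the SEC61 channel, lose their signal peptide, receive N-glycans and fold with the help of chaperones such as HSPA5 (BiP), and proteins that fail are returned to the cytosol for degradation. When unfolded proteins build up, the sensor ERN1 (IRE1) splices XBP1 mRNA and ATF6 is cleaved to an active factor, and both raise chaperone and ERAD genes, while the kinase PERK slows translation and thereby raises ATF4 protein, whose targets include DDIT3 (CHOP) and TRIB3. ATF4 is also raised by amino acid shortage, and in B cells the XBP1 arm is best known for building the secretory machinery of plasma cells.

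The factors of these branches bind known promoter elements, so the reference promoters of the members were searched for 3 of them on both strands. RefSeq promoter windows (GRCh38.p14, 250 bases before to 50 bases after the start) were available for 40 of the 45 members. The ER stress response element, spelled CCAAT and CCACG with any 9 bases between them, was found in 27 of 35116 windows (0.0769%) and in 8 of the members' 52 windows (15.4%). Those 8 windows belonged to 6 members, all chaperones or folding enzymes: CALR, CANX, CRELD2, HSP90B1, HSPA5 and PDIA6. The element TGACGTGG, bound by XBP1 and ATF6, was found in 0.729% of all windows and in those of HYOU1, SSR3 and SSR4. The ATF4 and CEBP element TGATGNAAT was found in 0.991% of all windows and in no member's window. At so low a share, the absence of a match in 52 windows says little. Among 27 other known ATF4 targets with a window it was found in 1, GARS1. A site of other spelling or outside the window would be missed, so no member is shown to lack the element. A match is a description of letters in the reference and not a measured binding site. TGACGTGG ends in CGTGG, the reverse complement of CCACG, so matches of these elements can overlap, and each was counted separately. The following sites are shown because they lie in promoters of members that rose (PDIA6, CALR and HYOU1), fell (HSPA5) or did not pass the test (CRELD2 and SSR3) from 2 to 8 h, written along the strand on which the element reads as spelled, with the element in capitals:
HSPA5, chr9:125241386-125241414, minus strand, upstream of the gene: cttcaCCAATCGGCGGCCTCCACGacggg
PDIA6, chr2:10812848-10812876, minus strand, in an intron of longer transcripts: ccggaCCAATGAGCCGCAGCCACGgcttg
CALR, chr19:12938379-12938407, minus strand, upstream of the gene: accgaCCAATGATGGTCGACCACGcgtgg
CRELD2, chr22:49918549-49918577, minus strand, in an intron of longer transcripts: atggcCCAATCCGAGTTCGCCACGagagg
HYOU1, chr11:119057376-119057403, minus strand, upstream of the gene: gctggccccgTGACGTGGtccaatccca
SSR3, chr3:156554149-156554176, plus strand, in an intron of longer transcripts: gtttccttgcTGACGTGGctgttatcag

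Levels are CPM, here counts of unique molecular identifiers (UMIs) scaled to a common library size with TMM normalization. The prime-seq protocol reads only an end of each mRNA, so this scale counts molecules and does not grow with gene length. Libraries held 161518 to 2978715 UMIs (median 885258.5), and 8 of them, 6 STAT6 MUT and 2 STAT6 WT, held fewer than 0.5 times the median. The 10 B-cell markers examined summed to 3150 to 4140 CPM in a library (CD38, with a median of 10.2 CPM, was at 0 in the lowest library), while 7 of 8 measured markers of other cell types had a median of 0. Of 7 plasma cell markers, which summed to 824 to 1270 CPM, PRDM1 and SDC1 had a median of 0, whereas JCHAIN (643), MZB1 (252), XBP1 (77.5), TNFRSF17 (19.5) and IRF4 (9.87) had medians above 0. The members together took 0.53% to 0.634% of all UMIs in a library, with a median of 0.567%. Their median levels ran from 0.607 CPM for CHAC1 to 561 for HSPA5, with ATF4 at 422. ERN1, PPP1R15A and CHAC1 had too few UMIs to be tested (mean 2.46, 4.57 and 0.87 UMIs per library), so 42 members were tested. In bulk RNA, fewer cells expressing a gene and less RNA per cell cannot be told apart.

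Over time, the ER genes changed in both directions while ATF4 fell early. At 8 h against 2 h, 18 of 42 members changed (10 rose, 8 fell), against 46.4% of all 9706 genes tested (23.5% rose, 22.9% fell), so the share among the members was close to the background. At 4 h against 2 h, 8 changed (3 rose, 5 fell), against a background over all genes of 22.2% (11.8% rose, 10.4% fell), and at 8 h against 4 h, 9 changed (7 rose, 2 fell), against 19% (9.68% rose, 9.27% fell). Of the 8 members that changed by 4 h, 5 were also changed at 8 h against 2 h, namely ATF4, EDEM1, HERPUD1, MANF and PDIA6. None of the 8 was among the 9 that changed between 4 and 8 h, and all of those 9 were among the 18. All tests were quasi-likelihood tests in edgeR, and p-values were adjusted by the Benjamini-Hochberg method over every gene tested. The 3 time comparisons share libraries, and the time points occupied different plate rows, so time and plate row cannot be told apart.

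**Figure D1:**
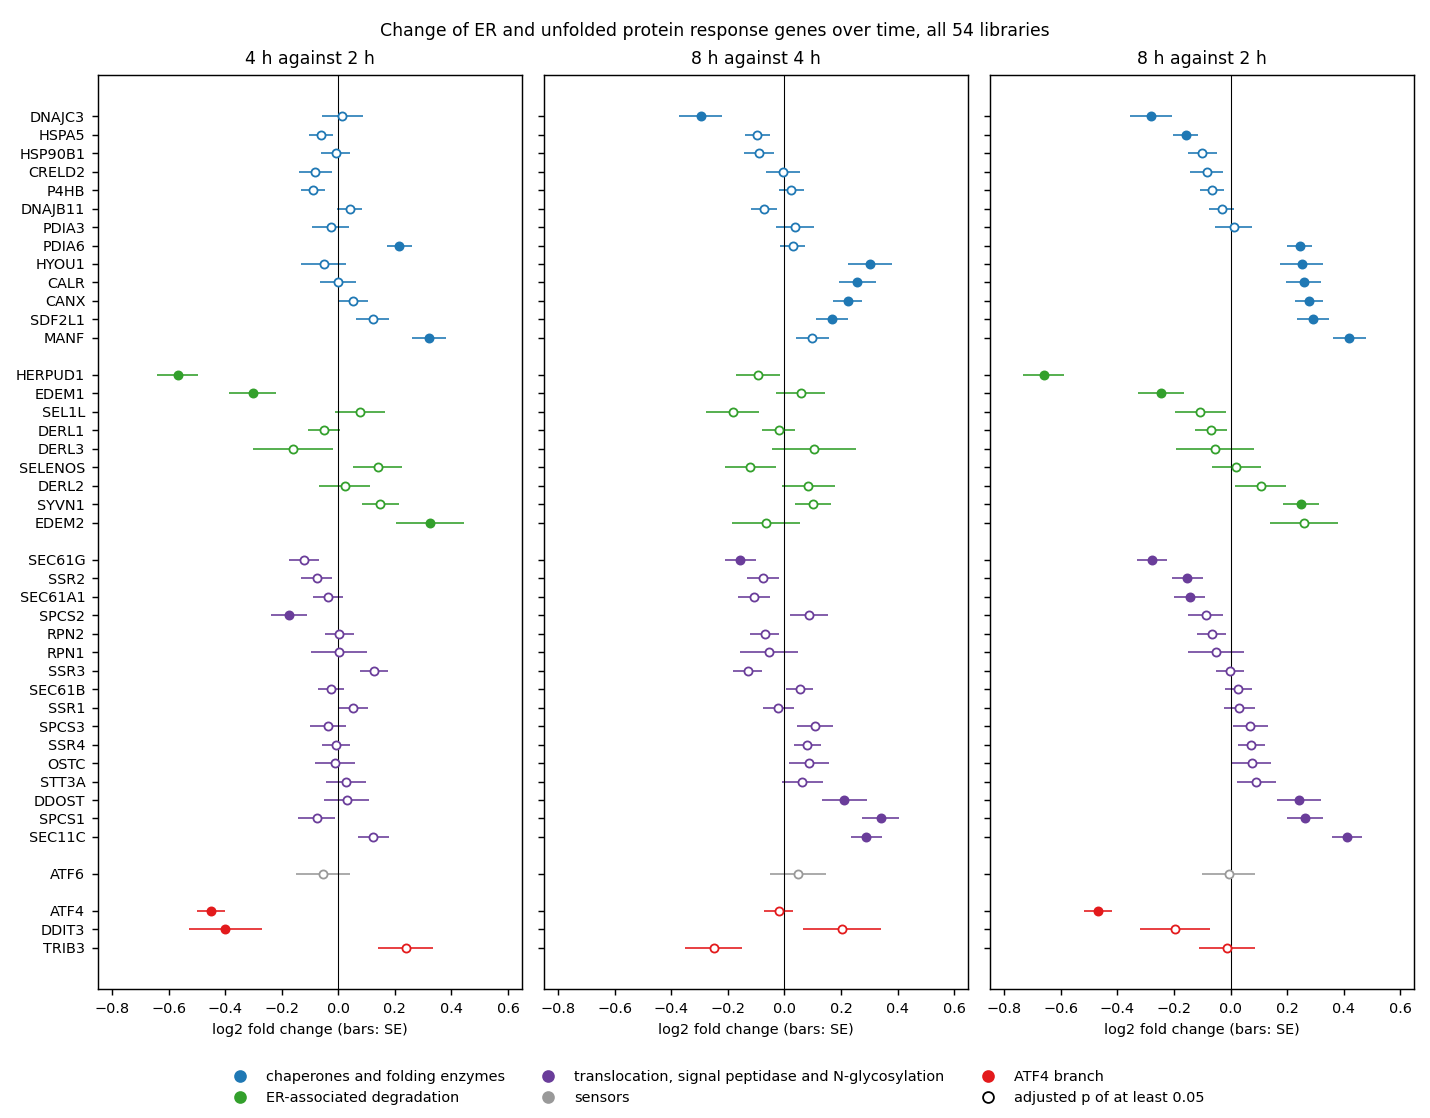
Log2 fold change of the 42 tested members (rows, grouped by role) at 4 h against 2 h, 8 h against 4 h and 8 h against 2 h, with bars for the SE and filled points for an adjusted p below 0.05. ATF4 and HERPUD1 lie far to the left by 4 h and stay there at 8 h, whereas SEC11C, SPCS1, CANX and CALR move right between 4 and 8 h.

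Among the chaperones and folding enzymes, 8 of 13 (61.5%) changed by 8 h against 2 h, beside 46.4% of all genes, and 6 of the 8 rose. MANF, an ER-resident regulator of HSPA5 that can be secreted, lay between 99.1 and 158 CPM at 2 h (median 119), between 118 and 210 at 4 h (median 143) and between 104 and 196 at 8 h (median 162). The groups overlapped, but 11 of the 18 libraries at 8 h were above every library at 2 h. MANF rose by 0.32 on the log2 scale by 4 h (SE 0.0594, adjusted p = 1.71e-05) and by 0.42 by 8 h (SE 0.0589, adjusted p = 5.06e-09, edgeR).

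PDIA6, a protein disulfide isomerase, also rose by 4 h. It ran from 206 to 300 CPM at 2 h (median 230), from 198 to 342 at 4 h (median 275) and from 223 to 319 at 8 h (median 276). Its log2 change was 0.22 at 4 h (SE 0.0448, adjusted p = 0.000131) and 0.24 at 8 h against 2 h (SE 0.0449, adjusted p = 3.97e-06). Within STAT6 WT alone the 4 h change was 0.14 and did not pass the test (adjusted p = 0.14), whereas within STAT6 MUT alone it was 0.30 (adjusted p = 0.000592). That difference did not pass the test of the interaction of genotype and time (adjusted p = 0.584).

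The lectin chaperones calnexin (CANX) and calreticulin (CALR), which hold glycoproteins during folding, rose between 4 and 8 h. CANX lay at 121 to 208 CPM at 2 h, at 138 to 220 at 4 h and at 157 to 251 at 8 h, with medians of 175, 175 and 205. The 2 h and 4 h groups had the same median, and 7 of 18 libraries at 8 h were above every library at 2 h. CANX changed by 0.22 between 4 and 8 h (SE 0.0508, adjusted p = 0.000655) and by 0.28 between 2 and 8 h (SE 0.0503, adjusted p = 3.09e-06). CALR had medians of 465, 460 and 567 CPM at 2, 4 and 8 h, and its log2 change was 0.26 between 4 and 8 h (SE 0.0638, adjusted p = 0.0018). The spread of CALR was wide at 8 h, from 235 to 823 CPM, and its lowest library, N421K replicate 2, was also among the 8 of low depth.

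HYOU1, a large Hsp70-related ER chaperone, and SDF2L1, a partner of DNAJB chaperones in the ER, rose over the same interval. HYOU1 ranged from 26.6 to 57.9 CPM at 2 h, from 22.5 to 56.3 at 4 h and from 29.4 to 74.5 at 8 h (medians 45, 44.1 and 52.8). It rose by 0.30 between 4 and 8 h (SE 0.0787, adjusted p = 0.00313). SDF2L1 ranged from 114 to 187, from 114 to 231 and from 142 to 205 CPM (medians 143, 147 and 179). It rose by 0.17 between 4 and 8 h (SE 0.0567, adjusted p = 0.0245), a call lost in 6 of 20 alternative analyses, among them those without the libraries numbered 1, 2, 8 or 9, and by 0.29 between 2 and 8 h (SE 0.0564, adjusted p = 1.13e-05). For HYOU1, 7 of 18 libraries at 8 h were above every earlier library, whereas for SDF2L1 no library at 8 h was above the highest at 4 h.

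HSPA5 and DNAJC3 were the chaperone genes that fell. HSPA5, the main ER Hsp70, ran from 467 to 705 CPM at 2 h (median 592), from 485 to 674 at 4 h (median 554) and from 466 to 623 at 8 h (median 534). The 3 ranges overlapped almost entirely, and the change was small: -0.16 at 8 h against 2 h (SE 0.0439, adjusted p = 0.00192), with -0.06 at 4 h (adjusted p = 0.322). DNAJC3, a co-chaperone of HSPA5 known also to inhibit PERK, had medians of 92, 99.2 and 80.2 CPM at 2, 4 and 8 h. It fell by 0.30 between 4 and 8 h (SE 0.0766, adjusted p = 0.00302). HSP90B1, the ER Hsp90, had medians of 130, 124 and 120 CPM and did not pass the test in any time comparison (8 h against 2 h -0.10, SE 0.0509, adjusted p = 0.101).

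Of the members with an ER stress response element in the window, CANX, PDIA6 and CALR rose from 2 to 8 h, HSPA5 fell, and HSP90B1 and CRELD2 did not pass the test. Of those with TGACGTGG, HYOU1 rose and SSR3 and SSR4 did not pass. Members sharing the letters printed above therefore did not share a direction.

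Among the ERAD genes, 3 of 9 (33.3%) changed by 4 h and 3 of 9 by 8 h against 2 h, beside 22.2% and 46.4% of all genes. HERPUD1, a ubiquitin-like ER membrane protein that helps assemble the degradation complex, showed the largest fitted fall of all 42 tested members. It lay at 60.5 to 119 CPM at 2 h (median 90.1), at 46.9 to 75.2 at 4 h (median 62.9) and at 29.1 to 92.2 at 8 h (median 60.1), and 10 of 18 libraries at 8 h were below every library at 2 h. HERPUD1 fell by 0.57 by 4 h (SE 0.0713, adjusted p = 5.41e-10) and by 0.66 by 8 h (SE 0.0715, adjusted p = 5.69e-13), both on the log2 scale. In STAT6 WT alone the change by 8 h was -0.60 and in STAT6 MUT alone -0.73.

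EDEM1, which recognises trimmed glycans on misfolded proteins, fell as well, while its relative EDEM2 did not follow. EDEM1 had medians of 46.1, 39.2 and 38.4 CPM at 2, 4 and 8 h and fell by 0.30 by 4 h (SE 0.0822, adjusted p = 0.00404). EDEM2 had medians of 17.7, 21.7 and 20.7 CPM and a change of 0.33 at 4 h against 2 h (SE 0.12, adjusted p = 0.04), a call that was lost in 12 of 20 alternative analyses. SYVN1 (HRD1), the ubiquitin ligase of the ERAD complex, had medians of 96.5, 105 and 113 CPM and rose by 0.25 from 2 to 8 h (SE 0.0637, adjusted p = 0.000771). That rise was 0.43 in STAT6 MUT alone (adjusted p = 9.99e-05), and in STAT6 WT alone the change was 0.10 and did not pass (adjusted p = 0.373).

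Of the 16 genes of translocation, signal peptidase and N-glycosylation, 1 (6.25%) changed by 4 h and 6 (37.5%) by 8 h against 2 h (3 rose, 3 fell), below the 22.2% and 46.4% of all genes. SEC11C, a catalytic subunit of the signal peptidase, rose late. It ran from 61.8 to 109 CPM at 2 h (median 85.6), from 77.6 to 108 at 4 h (median 92.2) and from 86.5 to 134 at 8 h (median 109), so that 9 of 18 libraries at 8 h were above every earlier one. SEC11C rose by 0.41 from 2 to 8 h (SE 0.0532, adjusted p = 3.66e-10) and by 0.29 from 4 to 8 h (SE 0.054, adjusted p = 3.13e-05).

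The accessory signal peptidase subunits did not move together. SPCS1 had medians of 103, 98.8 and 125 CPM at 2, 4 and 8 h and rose by 0.34 between 4 and 8 h (SE 0.0646, adjusted p = 4.27e-05), with 10 of 18 libraries at 8 h above every library at 4 h. SPCS2 had medians of 94.8, 83.8 and 90.5 CPM and fell by 0.17 by 4 h (SE 0.0639, adjusted p = 0.0376), a call lost in 10 of 20 alternative analyses. SEC61G, the smallest subunit of the translocation channel, had medians of 223, 197 and 184 CPM and fell by 0.28 from 2 to 8 h (SE 0.0537, adjusted p = 1.05e-05). SEC61A1, the pore subunit, fell by 0.14 over the same interval (SE 0.0537, adjusted p = 0.0212), a call lost in 7 of 20 alternative analyses, among them those without the libraries numbered 2, 3 or 9.

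In the ATF4 branch, ATF4 itself fell in both genotypes. ATF4, the transcription factor of the branch, lay between 437 and 667 CPM at 2 h (median 536), between 319 and 499 at 4 h (median 376) and between 342 and 485 at 8 h (median 382). At 4 h and again at 8 h, 15 of 18 libraries were below every library at 2 h, and the 4 h and 8 h groups overlapped. ATF4 fell by 0.45 on the log2 scale by 4 h (SE 0.0491, adjusted p = 3.44e-12) and by 0.47 by 8 h (SE 0.0495, adjusted p = 2.03e-13). From 4 to 8 h the value was -0.02 (SE 0.0508, adjusted p = 0.831). The fall by 8 h was 0.46 in STAT6 WT alone and 0.50 in STAT6 MUT alone.

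Of DDIT3 and TRIB3, both targets of ATF4 protein, DDIT3 fell by 4 h with both genotypes together, and from 2 to 8 h their values had opposite signs in the genotypes. DDIT3, a pro-apoptotic transcription factor, ranged from 7.6 to 32.4 CPM at 2 h, from 3.63 to 33.1 at 4 h and from 11 to 34.6 at 8 h (medians 18.8, 15.3 and 18). In STAT6 MUT these levels rest on few UMIs, 3 to 16 per library at 4 h (median 11) and 6 to 27 at 8 h (median 14). It fell by 0.40 by 4 h (SE 0.129, adjusted p = 0.0173), and at 8 h against 2 h the value was -0.20 and did not pass (adjusted p = 0.188). Within STAT6 WT alone DDIT3 fell by 0.47 from 2 to 8 h (SE 0.15, adjusted p = 0.0129), and within STAT6 MUT alone the value was 0.17 (SE 0.184, adjusted p = 0.512). TRIB3, a pseudokinase that restrains ATF4 and DDIT3, had medians of 29.7, 36.4 and 29.2 CPM, with 0.24 at 4 h (SE 0.0974, adjusted p = 0.0671) and -0.01 at 8 h against 2 h (adjusted p = 0.945). Within STAT6 MUT alone TRIB3 rose by 0.42 by 4 h (SE 0.138, adjusted p = 0.0433) and gave 0.34 at 8 h against 2 h (adjusted p = 0.0576), and within STAT6 WT alone it gave 0.09 (adjusted p = 0.69) and -0.29 (adjusted p = 0.0701). The highest levels of DDIT3 and TRIB3 at 4 h, 33.1 and 60.7 CPM, were those of D419G replicate 3, a library of 175878 UMIs. The interaction of genotype and time did not pass for either gene, with adjusted p = 0.217 for DDIT3 and 0.174 for TRIB3. Without the libraries numbered 2, the DDIT3 value at 4 h was -0.33 and no longer passed (adjusted p = 0.0985), and without those numbered 1 it was -0.38 (adjusted p = 0.0684). Nor did the DDIT3 value at 4 h pass within STAT6 WT alone (-0.37, adjusted p = 0.101) or STAT6 MUT alone (-0.46, adjusted p = 0.152).

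**Figure D2:**
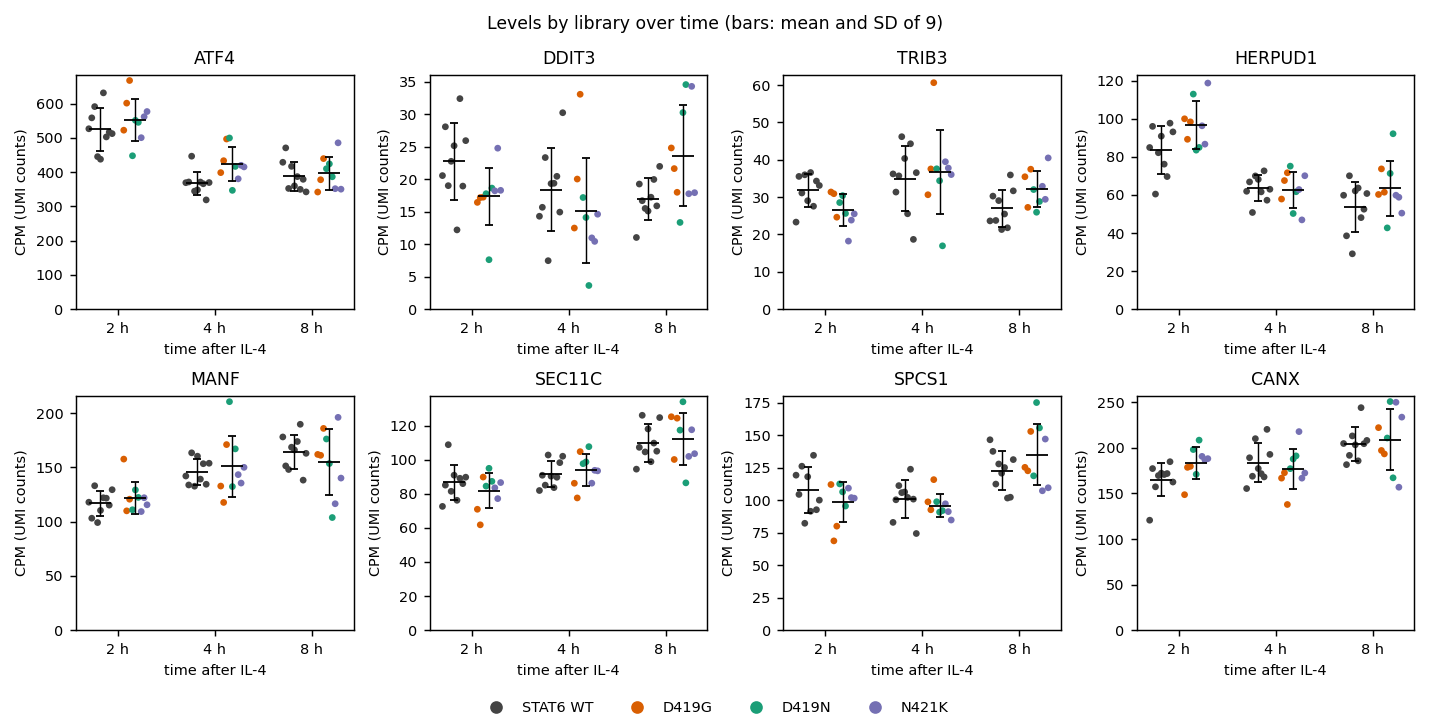
CPM (y axis, from 0) in each library of 8 members at 2, 4 and 8 h, with STAT6 WT to the left and the 3 mutant lines to the right at each time, and black bars for the mean and SD of 9 libraries. ATF4 and HERPUD1 step down between 2 and 4 h in both genotypes, SEC11C and SPCS1 are highest at 8 h, and the DDIT3 and TRIB3 points spread most at 4 h. There the STAT6 MUT libraries held 3 to 16 DDIT3 UMIs and 11 to 54 TRIB3 UMIs.

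The remaining members of the branch and the sensors were near the limit of detection or flat. PPP1R15A, which restores translation after PERK signalling, ran from 0 to 13 CPM over the 54 libraries (median 4.4). CHAC1, which breaks down glutathione, ran from 0 to 4.9 (median 0.607), and ERN1 ran from 0 to 6.1 (median 2.24). At these levels a change could not be read. ATF6 was measurable, with medians of 25.7, 26.3 and 26.6 CPM at 2, 4 and 8 h, and its log2 change was -0.05 at 4 h (adjusted p = 0.732) and -0.006 at 8 h against 2 h (adjusted p = 0.97). Gene counts do not show the splicing of XBP1 or the cleavage of ATF6.

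Rows for near-identical copies bear on some of these values. Rows named as ATF4 pseudogenes held 14682 UMIs beside 24029 for ATF4 (61.1%), and the counting could have split the reads of this gene among them. ATF4P3 and ATF4P4 fell like ATF4, by 0.45 and 0.51 by 4 h and by 0.55 and 0.62 by 8 h. Pseudogene rows came to 74.4% of the UMIs of SPCS2, 23.6% of PDIA3, 11.4% of HSPA5 and 7.91% of OSTC. SPCS2P4 fell by 0.18 by 4 h (adjusted p = 0.0406), close to SPCS2. In the reference annotation (GENCODE 44, GRCh38), 29 members overlap another gene of the table and 13 do so on the same strand, and whether counting used strand is not given in the sources used here.

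The XBP1-type ER genes and the ATF4 branch were then set side by side in each library as the mean log2 CPM of their tested genes. The mean of the 38 ER genes was 6.67, 6.66 and 6.69 in STAT6 WT and 6.67, 6.66 and 6.66 in STAT6 MUT at 2, 4 and 8 h. The mean of ATF4, DDIT3 and TRIB3 in STAT6 WT was 6.23 ± 0.109, 5.99 ± 0.228 and 5.88 ± 0.139 (SD, n = 9). In STAT6 MUT it was 6.05 ± 0.134, 5.96 ± 0.407 and 6.11 ± 0.144 (SD, n = 9). The lead of the ER genes over the ATF4 branch ran from 0.235 to 0.633 in STAT6 WT at 2 h. At 8 h it ran from 0.634 to 1.03 there, so the 2 ranges all but met. How often other sets of genes part to this degree was not counted. In STAT6 MUT the same lead ran from 0.470 to 0.881 at 2 h and from 0.112 to 0.780 at 8 h, and the groups overlapped. The mean of the branch gives DDIT3 and TRIB3, with few UMIs, the same weight as ATF4, which fell in both genotypes.

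**Figure D3:**
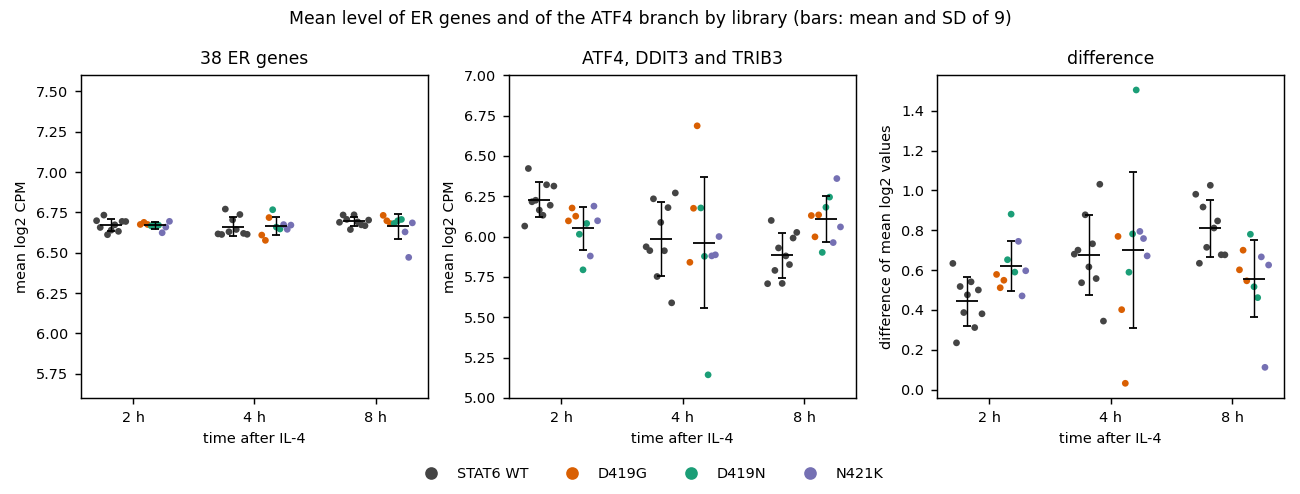
Mean log2 CPM of 38 ER genes (left), of ATF4, DDIT3 and TRIB3 (middle, y axis of the same span) and their difference (right) in each library at 2, 4 and 8 h, with bars for the mean and SD of 9 libraries. The ER genes stay near 6.7 throughout, while the ATF4 branch of STAT6 WT goes down from 2 to 8 h and that of STAT6 MUT spreads most at 4 h. At that time 2 of the 3 D419G libraries were of low depth.

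The same groups were also counted gene by gene. By 4 h the median log2 change was -0.0042 over the 38 ER genes (6 called, 3 rose and 3 fell), -0.40 over the 3 tested genes of the ATF4 branch (2 called, both fell) and -0.0011 over all genes tested. By 8 h against 2 h the medians were 0.0155 (17 called, 10 rose and 7 fell), -0.20 (1 called, which fell) and 0.0007. From 4 to 8 h they were 0.0332 (9 called, 7 rose and 2 fell) and -0.0198 (0 called by edgeR, DESeq2 or limma-voom, and 1, TRIB3, at an unadjusted p under 0.05). Within STAT6 MUT alone, however, DDIT3 rose by 0.63 from 4 to 8 h (SE 0.208, adjusted p = 0.0364), and within STAT6 WT alone its value was -0.10 (adjusted p = 0.812). That rise starts from 3 to 16 DDIT3 UMIs in a STAT6 MUT library at 4 h. With 3 genes in the ATF4 branch, these medians describe ATF4, DDIT3 and TRIB3 and nothing wider.

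Between the genotypes, the share of members that differed was near that of all genes, and the differences were small. Across the time points, 7 of 42 members (16.7%) differed between STAT6 MUT and STAT6 WT, against 13.4% of the 9261 genes tested (6.74% higher, 6.62% lower). PDIA6, DNAJC3 and EDEM1 were higher and SDF2L1, SYVN1, CALR and SEC61A1 lower in STAT6 MUT. All 7 were XBP1-type ER genes, which make up 38 of the 42 tested members. Their fitted differences lay between -0.22 and 0.25 on the log2 scale. With the plate row as a term, which compares the genotypes within rows, 5 of the 7 passed. Without the 8 low-depth libraries 5 passed as well, in both cases without CALR and SEC61A1. With the replicate number as a block, PDIA6 and DNAJC3 kept the call. CALR (adjusted p = 0.0534), SDF2L1 (0.0661), SEC61A1 (0.134), EDEM1 (0.229) and SYVN1 (0.45) lost it. Without the N421K line, PDIA6, SDF2L1 and SEC61A1 kept the call. SYVN1 (adjusted p = 0.0737), DNAJC3 (0.114), EDEM1 (0.149) and CALR (0.38) lost it there. Of the 7, only PDIA6 kept its call in all of these fits.

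**Figure D4:**
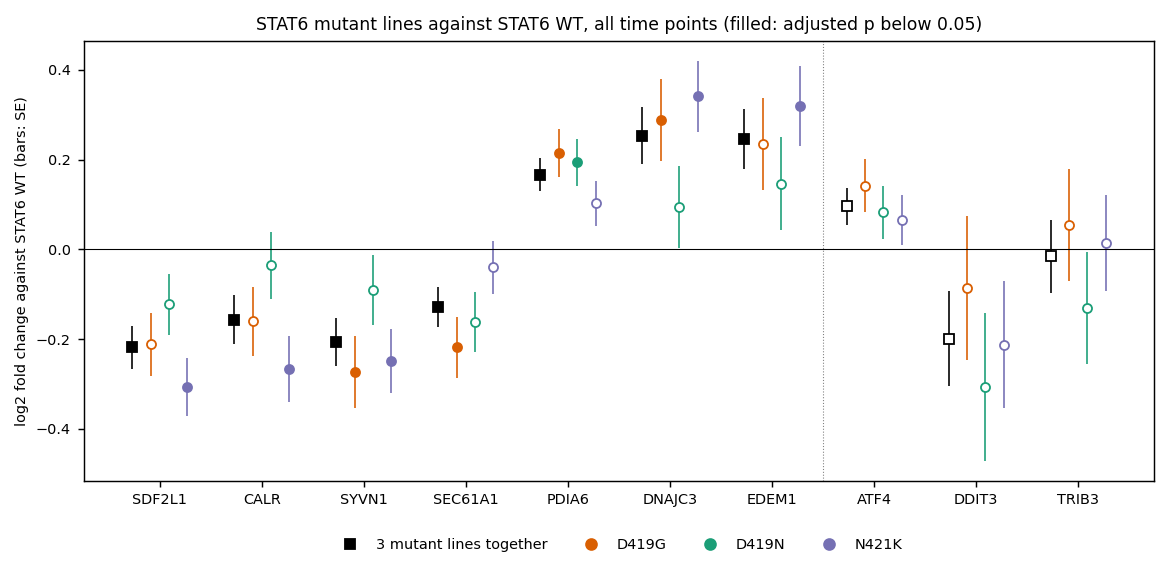
Log2 fold change against STAT6 WT (y axis, bars for the SE) of the 7 members called across time points and, right of the dotted line, of ATF4, DDIT3 and TRIB3, for the 3 mutant lines together (black squares) and for D419G, D419N and N421K, with filled points for an adjusted p below 0.05. The 3 lines lie on the same side of 0 for each of the 7 members, and every point of the ATF4 branch is open.

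PDIA6 was higher in STAT6 MUT. At 2 h it ran from 209 to 296 CPM in STAT6 WT (median 228) and from 206 to 300 in STAT6 MUT (median 231), so the groups coincided. At 4 h it ran from 198 to 277 (median 253) against 265 to 342 (median 292), with 8 of 9 mutant libraries above every wild-type one, and at 8 h from 223 to 312 (median 253) against 260 to 319 (median 307). The difference across time points was 0.17 (SE 0.0369, adjusted p = 0.000574), and it kept its call in all 22 alternative analyses.

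DNAJC3 was higher in STAT6 MUT at each time by its median, with overlapping groups. The wild-type medians were 79.4, 89.5 and 72.4 CPM at 2, 4 and 8 h and the mutant medians 103, 106 and 86.5. The difference was 0.25 (SE 0.0634, adjusted p = 0.00254), and without the libraries numbered 3 it was 0.17 and did not pass (adjusted p = 0.0872). EDEM1 had wild-type medians of 42.7, 30.5 and 36.3 CPM and mutant medians of 50.1, 41.1 and 44.1, and at 8 h 6 of 9 mutant libraries were above every wild-type one. Its difference was 0.25 (SE 0.0678, adjusted p = 0.00694), and it did not pass without the libraries numbered 2 (0.21, adjusted p = 0.0597) or 3 (0.19, adjusted p = 0.134).

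SDF2L1 was lower in STAT6 MUT by the smallest adjusted p of the members. It ran from 133 to 187, from 129 to 231 and from 160 to 205 CPM in STAT6 WT at 2, 4 and 8 h (medians 153, 177 and 184), and from 114 to 156, from 114 to 179 and from 142 to 199 in STAT6 MUT (medians 136, 140 and 156). The groups overlapped at each time, with 5 of 9 mutant libraries below every wild-type one at 8 h. The difference was -0.22 (SE 0.0479, adjusted p = 0.000465). In both genotypes the median at 8 h was above the median at 2 h.

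SYVN1 was lower in STAT6 MUT, most clearly at 2 h. There it ran from 100 to 138 CPM in STAT6 WT (median 106) and from 58.4 to 92.6 in STAT6 MUT (median 83.6), with no overlap between the 9 and 9 libraries. Every other member overlapped between the genotypes at each time. The share of all genes without overlap was not counted, so this cannot be read as particular to SYVN1. Later the groups overlapped, with wild-type medians of 111 and 116 CPM and mutant medians of 101 and 108 CPM at 4 and 8 h. At 2 h the difference was -0.40 (SE 0.0818, adjusted p = 0.000447), against -0.13 at 4 h and -0.09 at 8 h, neither of which passed, and the interaction of genotype and time did not pass either (adjusted p = 0.348). Across time points the difference was -0.21 (SE 0.0532, adjusted p = 0.00345), and without the libraries numbered 1 it was -0.17 (adjusted p = 0.0688). SYVN1 overlaps the more abundant FAU on the same strand (88449 UMIs beside 5731), and FAU itself differed by -0.01 between the genotypes (adjusted p = 0.868).

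The last 2 calls, CALR and SEC61A1, were the weakest of those between genotypes across time points, with the largest adjusted p-values. CALR ran from 461 to 655 CPM in STAT6 WT (median 498) and from 371 to 503 in STAT6 MUT (median 443) at 2 h, where 8 of 9 mutant libraries were below every wild-type one. Across time points its difference was -0.16 (SE 0.0547, adjusted p = 0.0408), and it lost the call in 10 of 22 alternative analyses. SEC61A1 had wild-type medians of 131, 126 and 117 CPM and mutant medians of 119, 116 and 115. Its difference was -0.13 (SE 0.0453, adjusted p = 0.0443), and it lost the call in 13 of 22. Without the libraries numbered 2 the CALR value was -0.09 (adjusted p = 0.346), and without those numbered 3 it was -0.13 (adjusted p = 0.185) and that of SEC61A1 -0.10 (adjusted p = 0.252).

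**Figure D5:**
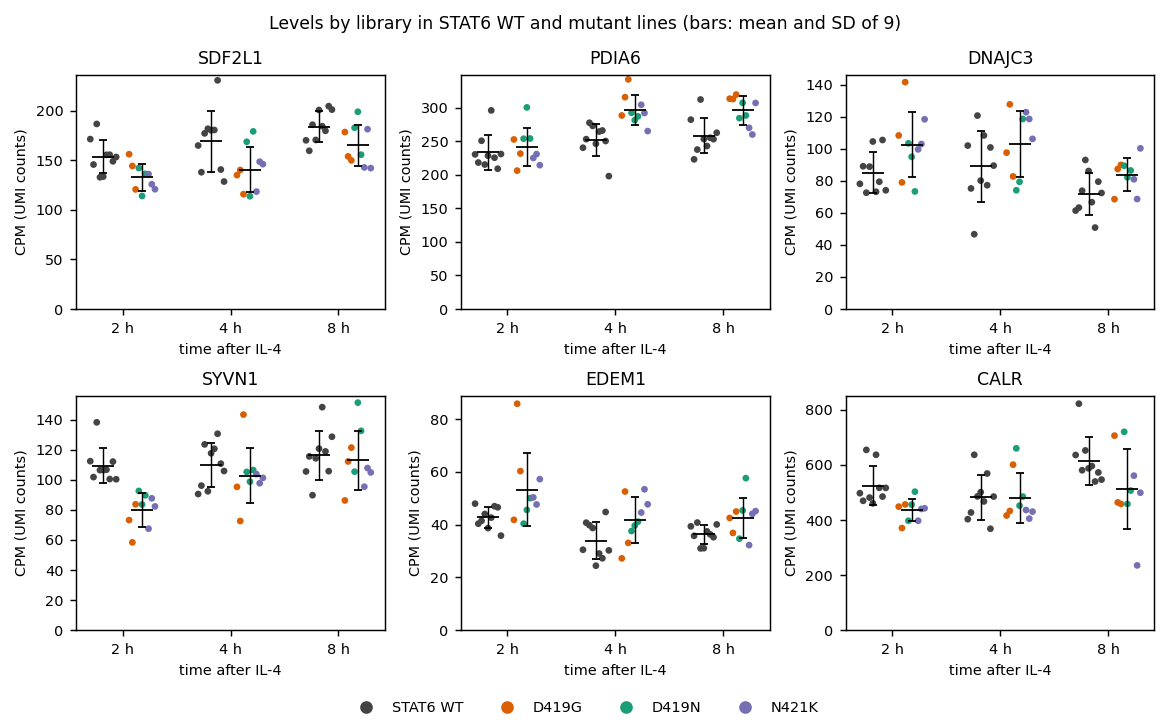
CPM (y axis, from 0) of SDF2L1, PDIA6, DNAJC3, SYVN1, EDEM1 and CALR in each library at 2, 4 and 8 h, STAT6 WT left and the mutant lines right at each time, with bars for the mean and SD of 9 libraries. SYVN1 at 2 h is the panel and time in which the 2 sets of points do not overlap, and the share of all genes without overlap was not counted. At 4 h, 8 of 9 STAT6 MUT libraries lie above every STAT6 WT library for PDIA6.

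HSPA5 and HSP90B1, the most general markers of chaperone induction, gave values near 0 between the genotypes. Their log2 differences across time points were -0.0008 (SE 0.037, adjusted p = 0.993) and -0.01 (SE 0.0432, adjusted p = 0.905). ATF6 gave 0.01 (SE 0.0783, adjusted p = 0.94). Over the 38 ER genes the median difference was 0.0045, beside 0.0012 over all genes tested.

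In the ATF4 branch 0 of 3 tested genes differed between the genotypes across time points by edgeR, DESeq2 or limma-voom, and 1, ATF4, had an unadjusted p under 0.05. In STAT6 WT, ATF4 ran from 437 to 631, from 319 to 446 and from 342 to 470 CPM over the 3 times, and in STAT6 MUT from 447 to 667, from 346 to 499 and from 342 to 485. The ranges overlapped at each time, and the difference was 0.10 (SE 0.0405, adjusted p = 0.111). The row ATF4P3 differed by 0.23 (SE 0.0553, adjusted p = 0.0021), whereas ATF4P4 gave 0.04 (adjusted p = 0.704). For DDIT3 the difference was -0.20 (SE 0.106, adjusted p = 0.228) and for TRIB3 -0.02 (SE 0.0812, adjusted p = 0.937).

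By time, the genotype difference of DDIT3 and TRIB3 had opposite signs at 2 and 8 h, although no test of this passed. In STAT6 WT the DDIT3 medians over the 3 times were 22.8, 19.3 and 16.7 CPM, and in STAT6 MUT they were 17.8, 14.1 and 21.6 CPM, with overlapping ranges. Its log2 differences were -0.39 (adjusted p = 0.0882), -0.49 (adjusted p = 0.255) and 0.26 (adjusted p = 0.511). The TRIB3 medians were 33.1, 36.2 and 25.5 CPM in STAT6 WT and 25.6, 37.6 and 32 CPM in STAT6 MUT, with log2 differences of -0.33 (adjusted p = 0.0826), -0.01 (adjusted p = 0.996) and 0.31 (adjusted p = 0.266).

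The interaction of genotype and time called none of the 42 members (background 0.957%) by edgeR, DESeq2 or limma-voom. At an unadjusted p under 0.05 it held 5 members by each tool, and the smallest edgeR values were those of TRIB3 (adjusted p = 0.174) and DDIT3 (adjusted p = 0.217). ATF4 had an adjusted p of 0.691 there.

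Tested at each time alone, 3 members differed between the genotypes at 2 h (background 8.59%), 1 at 4 h (background 3.97%) and none at 8 h (background 1.44%). At 2 h these were SYVN1, CALR (-0.25, SE 0.061, adjusted p = 0.00454) and DNAJC3 (0.29, SE 0.0917, adjusted p = 0.0362). The CALR call was lost in 3 of 23 alternative analyses. That of DNAJC3 was lost in 11 of 23, DESeq2 and limma-voom among them. At 4 h it was PDIA6 (0.22, SE 0.0638, adjusted p = 0.0376). This call was lost in 10 of 23 alternative analyses, among them that without the low-depth libraries (adjusted p = 0.0833). At 8 h, 0 members passed by any of the 3 tools, and 6 had an unadjusted p under 0.05 by edgeR. The number of calls fell with time for all genes too, as the backgrounds show.

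The 3 mutant lines were compared with the same STAT6 WT libraries, so their results are not independent of each other. D419G differed in 4 members (background 5.38%), D419N in 1 (background 2.75%) and N421K in 5 (background 13.7%). PDIA6 was higher by 0.22 in D419G (adjusted p = 0.00511) and 0.19 in D419N (adjusted p = 0.0227), and in N421K the value was 0.10 (adjusted p = 0.18). DNAJC3 was higher by 0.34 in N421K (adjusted p = 0.000993) and by 0.29 in D419G (adjusted p = 0.0413), with 0.10 in D419N (adjusted p = 0.734). The D419G call of DNAJC3 was lost in 9 of 19 alternative analyses, with DESeq2 (adjusted p = 0.0653) and plate row (adjusted p = 0.0748) among them, and without the libraries numbered 3 the value was 0.18 (adjusted p = 0.366). SYVN1 was lower by -0.27 in D419G (adjusted p = 0.0267) and -0.25 in N421K (adjusted p = 0.00976), with -0.09 in D419N (adjusted p = 0.685). Without the libraries numbered 1 the D419G value of SYVN1 was -0.20 (adjusted p = 0.354), and without those numbered 2 the D419N value of PDIA6 was 0.17 (adjusted p = 0.218).

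The other calls belonged to 1 line each. In N421K, SDF2L1 was lower (-0.31, SE 0.0643, adjusted p = 0.000208), CALR was lower (-0.27, SE 0.0729, adjusted p = 0.00643) and EDEM1 was higher (0.32, SE 0.0881, adjusted p = 0.00685). In D419G, SEC61A1 was lower (-0.22, SE 0.0679, adjusted p = 0.0381), a call lost in 9 of 19 alternative analyses. Without the low-depth libraries, 1 member was called in D419G, 1 in D419N and 5 in N421K. The shares of all genes called in that fit are not given here, so these counts have no background beside them. The test of a difference among the 3 lines called none of the members by edgeR, DESeq2 or limma-voom (background 2.39%), with 5 at an unadjusted p under 0.05 by edgeR. No member can therefore be called particular to a line.

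The replicates of each line show how these values arose. SYVN1 at 2 h was 73.2, 58.4 and 83.7 CPM in D419G, 92.6, 83.6 and 89.7 in D419N and 67.5, 87.7 and 82.3 in N421K, each below the lowest wild-type library at 100. PDIA6 at 4 h was 288, 315 and 342 in D419G, 292, 281 and 287 in D419N and 304, 292 and 265 in N421K, so that 1 library of N421K fell within the wild-type range, which ended at 277. EDEM1 at 2 h was 41.8, 85.9 and 60.3 in D419G, the widest spread of the lines, against 40.4, 45.6 and 50.1 in D419N and 50.3, 47.7 and 57.3 in N421K.

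Other genes of the pathways, from lists chosen with earlier results of these data known, gave the following. Of 53 further ER genes, 46 were tested between the genotypes and 2 (4.35%) differed, below the 13.4% of all genes. XBP1 was higher in STAT6 MUT (0.64, SE 0.064, adjusted p = 2.75e-13) and PDIA4, a protein disulfide isomerase, was lower (-0.24, SE 0.0431, adjusted p = 1.31e-05). XBP1 ran from 68.5 to 109 CPM in STAT6 WT and from 114 to 166 in STAT6 MUT at 2 h, without overlap. At 4 h it ran from 29.8 to 56.4 and from 77.2 to 120, again without overlap. At 8 h the groups overlapped, with 6 of 9 mutant libraries above every wild-type one. XBP1 fell by 1.05 from 2 to 8 h (SE 0.0774, adjusted p = 5.52e-21). Over the same interval 17 of 47 tested ER genes of this list (36.2%) changed, below the 46.4% of all genes, 11 rising and 6 falling. The smallest adjusted p-values, by which genes of these lists are named here, were those of SRPRB (0.44), PDIA4 (0.35) and LMAN1 (0.59) among those that rose and of XBP1, DNAJC10 (-0.23) and SEC63 (-0.19) among those that fell. By 4 h 8 changed (4 rose, 4 fell; 17%, beside 22.2%), with SRPRB (0.29), LMAN1 (0.29) and STT3B (0.20) named among those that rose and XBP1 (-0.72), EIF2AK3 (-0.42), which encodes PERK, and DNAJC10 (-0.17) among those that fell. From 4 to 8 h 8 changed (6 rose, 2 fell; 17%, beside 19%), SEC62 (0.26), FKBP2 (0.29) and PDIA4 (0.21) being named among those that rose, while XBP1 (-0.33) and ERO1B (-0.38) fell.

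Of 34 further targets of ATF4, 28 were tested, and from 2 to 8 h 17 (60.7%) changed, beside 46.4% of all genes (7 rose, 10 fell). ATF5, a related transcription factor, had medians of 520, 375 and 277 CPM at 2, 4 and 8 h and fell by 0.88 (SE 0.0458, adjusted p = 3.06e-30). SHMT2 of serine metabolism (-0.63) and the cystine transporter SLC7A11 (-1.24) fell with it, while the tRNA ligases NARS1 (0.45) and AARS1 (0.41) and the factor JDP2 (0.78) rose. By 4 h, 12 (42.9%) had changed, beside 22.2% of all genes (3 rose, 9 fell), among them JDP2 (0.66), NARS1 (0.33) and SLC1A5 (0.25) upward and ATF5 (-0.42), SHMT2 (-0.31) and SLC7A11 (-0.89) downward. From 4 to 8 h 8 (28.6%) changed, beside 19% (4 rose, 4 fell), among them AARS1 (0.29), WARS1 (0.25) and EPRS1 (0.16) upward and ATF5 (-0.46), SHMT2 (-0.32) and GARS1 (-0.16) downward. Between the genotypes 4 (14.3%) differed, beside 13.4% of all genes. PHGDH (0.38, adjusted p = 3.68e-09) and SHMT2 (0.24, adjusted p = 6.4e-06) were higher in STAT6 MUT, and SLC1A5 (-0.16, adjusted p = 0.0222) and JDP2 (-0.28, adjusted p = 0.0369) lower. The targets of ATF4 thus moved in both directions over time, and their median log2 change from 2 to 8 h was -0.0193.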

How the data were processed

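Prime-seq libraries of OCI-Ly1 cells were analysed. Per the study's methods, read processing followed the Drop-seq pipeline. The deposited table holds raw UMI counts by Ensembl gene and library. The submitters' processing notes name hg38. Aligner, annotation and strand setting: not given in the sources used here. Members and lists were chosen with earlier results of these data known. Of 31835 identifiers, 30959 had a symbol.

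Counts were filtered with filterByExpr, scaled by TMM and tested with the quasi-likelihood test of edgeR 4.0.16 (R 4.3.3) with Benjamini-Hochberg adjustment over all genes tested, a call being an adjusted p below 0.05. Genotype was fitted with time, and time with the 4 lines. Genotype at each time and its interaction with time were fitted separately. DESeq2 1.42.0 and limma-voom (limma 3.58.1) were alternatives, besides other scalings, filters, covariates and left-out libraries. Mean log2 levels used a prior count of 2. The fit was tested on simulated data. The chi-square per degree of freedom between replicate libraries of a group was 1.07 to 3.98 over 135 pairs, and no library was merged with another. Named were the ATF4 branch, the sensors, HSPA5, HSP90B1, members called between genotypes and the 8 members of smallest adjusted p per time comparison. CRELD2, SSR3 and SSR4 were named for their promoter letters.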

Additional observations from a re-analysis of the deposited data

Results flagged for a closer look

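Within each group of 9 STAT6 WT libraries, the highest or lowest library stood far from its neighbour (Dixon's test) in 11 of 72 groups, examined for 24 members at 3 times. Chance flags about 1 in 20 groups. The levels below are CPM, and their causes were not tested. At 2 h, replicate 3 was the highest library for SYVN1 at 138 (next 112), SEC11C at 109 (next 91) and SSR2 at 112 (next 101). Also at 2 h, replicate 6 was highest for PDIA6 at 296 (next 251) and replicate 1 lowest for CANX at 121 (next 157). At 4 h, replicate 3 was highest for ATF4 at 446 (next 371) and for EDEM2 at 38.4 (next 25.2), and replicate 9 was lowest for PDIA6 at 198 (next 240). At 8 h, replicate 2 was highest for CALR at 823 (next 653), replicate 7 was highest for CANX at 244 (next 213) and replicate 4 was lowest for DDOST at 40.7 (next 59.5). Replicate 2 at 8 h (357395 UMIs) and replicate 6 at 2 h (332236 UMIs) are the 2 STAT6 WT libraries of low depth. The DDOST value rests on 21 UMIs and the EDEM2 value on 28.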

How the results depend on the processing

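No called value of a member changed direction. Of 1136 such values under alternatives, 960 kept their call and 176 lost it, and of 249 counts of called members 208 stayed within 1.5 times. Leaving out replicate 1, 2 or 3 removes libraries of all 4 lines, whereas leaving out 1 of the numbers 4 to 9 removes STAT6 WT libraries only. Across time points, the count of members called between genotypes was 7, and it was 3 without the N421K line and 4 to 7 when the libraries of each replicate number were left out in turn (4 without replicate 2 or 3). At 4 h against 2 h it was 8, with 4 in STAT6 WT alone and 5 to 9 (5 without replicate 1 or 2). At 8 h against 4 h it was 9, with 3 in STAT6 WT alone, 5 in STAT6 MUT alone and 5 to 10 (5 without replicate 1). At 8 h against 2 h it was 18, with 15 to 19. For D419G it was 4, with 2 without a filter on low counts, 1 without low-depth libraries and 1 to 5 (1 without replicate 1 or 2, and 2 without replicate 3 or 7). For D419N it was 1, with 0 without a filter and 0 to 1 (0 without replicate 1, 2 or 3). For N421K it was 5, with 3 to 5 (3 without replicate 3). At 2 h it was 3, with 1 in a model of 6 groups, 1 without the N421K line and 2 to 3. At 4 h it was 1, with 0 without a filter, with log2 total count as covariate, without low-depth libraries, without the D419G line or without the N421K line, 3 without the D419N line and 0 to 2 (0 without replicate 1, 2, 5 or 9 and 2 without replicate 3). At 8 h it was 0, with 1 in the model of 6 groups, 1 without the D419N line and 0 to 2 (2 without replicate 1, 1 without replicate 4). The shares of all genes called in these fits are not given here. A change in a count therefore cannot be read as particular to the members. The causes were not tested.

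Fits with the replicate number as a block called 2 members between genotypes across time points, 1 in D419G, 0 in D419N and 0 at 4 h, and elsewhere stayed within 1.5 times. Deviations of same-numbered libraries of a line at 2 times had a median correlation of -0.004, with 4 of 54 pairs over 0.1. With different numbers the median was 0.005, with 18 of 270 pairs over 0.1. Of 54 libraries, 11 correlated best with their own number in the other times of their line. Between 2 lines at the same time, same-numbered pairs had a median of 0.002, with 8 of 54 over 0.1. Differently numbered pairs had a median of 0, with 23 of 270 over 0.1. These values do not settle whether the numbers pair libraries across lines.

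ATF4, HERPUD1 and MANF kept their calls at 4 h and at 8 h against 2 h under all 20 alternatives, and SYVN1 kept its call at 2 h under all 23. Depth limits what can be read of ERN1, PPP1R15A and CHAC1, and also of DDIT3, which held 3 to 16 UMIs in a STAT6 MUT library at 4 h.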
